A study of Caenorhabditis elegans with 4 samples.

Results

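Narrow, replicated binding sites of DPY-26 on the X chromosome of Caenorhabditis elegans embryos are described here. A site was a peak of the series-level list that lay on the X, was narrower than 800 bp and overlapped a peak of ChIP replicate 1 and a peak of ChIP replicate 2 by at least 1 bp. There were 739 such sites among the 9882 peaks of that list. They made up 8.81% of the 8390 X peaks narrower than 800 bp, and 355 wider X peaks also overlapped both replicates. The same rule without the width limit kept 12.1% of the 9008 X peaks. The sites were chosen by measured values, namely the position and width of the series-level call and the presence of both replicate calls, so these shares are descriptions.

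DPY-26 is a condensin subunit. In worm hermaphrodites it works in the dosage compensation complex, a condensin-containing assembly that binds both X chromosomes and lowers their transcription. The complex is known to load at recruitment sites on the X and to spread from them to further sites along the chromosome, many of them near active promoters. Males, with a single X, do not use this complex to lower X expression. DPY-26 is also a subunit of condensin I, which acts on all chromosomes in mitosis.

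The ChIP group held 2 libraries precipitated with the affinity-purified rabbit polyclonal antibody SDQ4561 against DPY-26, and 2 further libraries held input DNA from the same kind of extract. All 4 libraries came from wild-type N2 embryos of mixed stage, grown at 20 °C and labelled as a population of males and hermaphrodites. Each library therefore averages over many embryos, stages and cell types. Separate cultures are not named for the 2 ChIP replicates, so any spread between them may be technical. Peak lists were used for the ChIP libraries only, and the input libraries were not analysed here. The replicate 1 list held 1235 X peaks, the replicate 2 list 2542 and the series-level list 9008. The lists carry a score per peak and no read counts, so the depth behind a site is unknown. Scores are those of the authors' peak caller, their scale is not stated in the labels or headers, and each score is read only within its own list. Coordinates are on WormBase WS220, per the file headers. No gene annotation or genome of that release was used here, so sites are named by position and no sequence is shown. All sites share the same 2 libraries and many share a replicate 2 peak, so they are not replicates of a condition and no test was run over them.

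The sites were compact peaks of intermediate score. Their median width was 576 bp (quartiles 488 and 672.5 bp, range 151 to 799 bp), and 679 of them, or 91.9%, were wider than 400 bp. Together they covered 424392 bp, or 2.40% of the X, against 479481 bp, or 2.71%, for the 355 broad sites. The median series-level score of the narrow sites was 44.8 (quartiles 26.6 and 69.2), against 69.9 (quartiles 42.2 and 108.9) for the broad sites. Narrow X peaks found in replicate 2 alone, 4887 in number, had a median score of 7.02 and a median width of 312 bp. The 2720 narrow X peaks found in neither replicate had a median score of 5.03 and a median width of 228 bp. The 44 narrow X peaks found in replicate 1 alone had a median score of 14.8 and a median width of 477.5 bp. In median score the narrow sites thus lay between the broad sites and these narrow unreplicated peaks. Replicate support was part of the rule, so this order is a description.

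Width and score moved together within the narrow sites. The 8 sites of up to 200 bp had a median series-level score of 5.67, and none scored above 10.2. The 52 sites of 201 to 400 bp had a median score of 21.0, the 357 sites of 401 to 600 bp one of 38.9, and the 322 sites of 601 to 799 bp one of 58.1. Across the 739 sites width and series-level score gave a Spearman's rho of 0.41, and their log2 values a Pearson's r of 0.50. Both quantities come from the same call of the same peak. Around the limit of 800 bp, replicated X peaks of 600 to 699 bp had a median score of 56.0, those of 700 to 799 bp one of 61.7, those of 800 to 899 bp one of 71.3 and those of 900 to 999 bp one of 66.0. Median replicate 1 scores of these classes were 178.8, 207.3, 267.6 and 287.4.

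**Figure D1:**
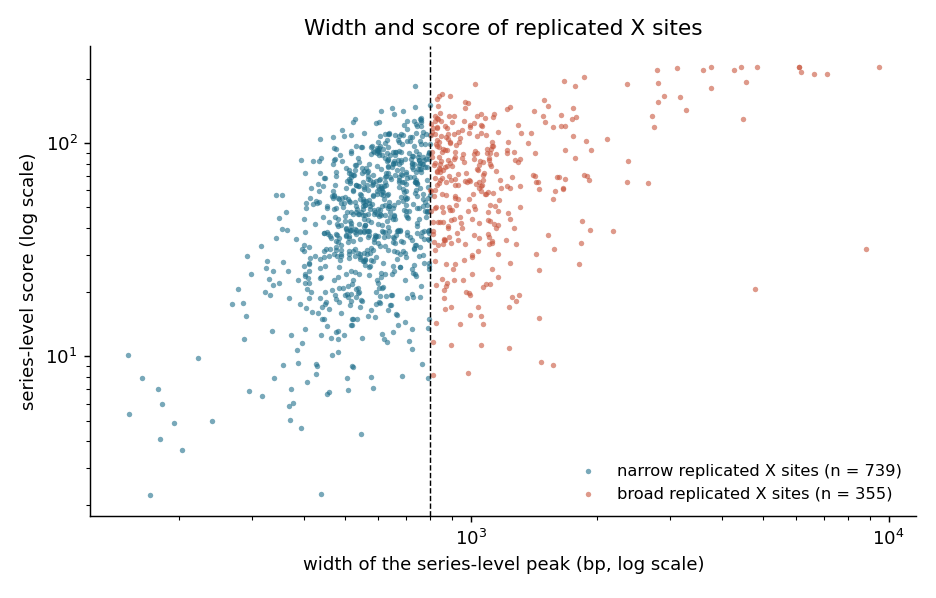
Each point is a series-level X peak that overlapped both replicate lists, with its width in bp on the horizontal log axis and its series-level score on the vertical log axis; 739 narrow sites are blue, 355 broad sites are red and the dashed line marks 800 bp. The widths run through the limit without a gap, and the narrowest sites, of up to 200 bp, stay at or below a score of 10.2.

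The 3 widest sites were 799 bp wide and lay on the X at 1018318 to 1019116, 4711562 to 4712360 and 10555180 to 10555978, with series-level scores of 57.4, 150.0 and 108.9. The 3 replicated X peaks just past the limit were 800, 801 and 801 bp wide, with scores of 60.4, 47.8 and 123.0. At the other end, the narrowest site, at 4525713 to 4525863, was 151 bp wide and scored 10.2. It lay in a replicate 2 peak of 10784 bp that held 9 series-level peaks, 1 of them a broad site.

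The strongest narrow site lay on the X at 4395150 to 4395885. It was 736 bp wide and its series-level score of 185.7 gave it rank 20 of all 9882 peaks. Its replicate 1 peak was 692 bp wide with a score of 1788, the highest replicate 1 score of any narrow site, and its replicate 2 peak was 2389 bp wide with a score of 1994. The second highest score, 150.0, belonged to the 799 bp site at 4711562 to 4712360, which scored 592.0 in replicate 1 and 1466 in replicate 2. The third, at 949270 to 950004, scored 146.8 in the series-level list, 893.2 in replicate 1 and 1503 in replicate 2. It was the only series-level peak in its replicate 2 peak, which was 1700 bp wide.

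The other 7 of the 10 highest-scoring sites began at 12664815, 2242703, 14312216, 13995522, 9743148, 8286616 and 1379167. Their series-level scores ran from 129.2 to 146.0 and their widths from 528 to 761 bp. Replicate 1 scores of these 7 ran from 327.3 to 1474 and replicate 2 scores from 766.7 to 1370, so the order of the series-level scores was not that of either replicate. Each of the 10 was the only replicated site in its replicate 2 peak.

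Narrow sites also occurred among the best peaks of each list, where broad sites were more numerous. Of the 100 highest-scoring X peaks of the series-level list, 22 were narrow sites and 77 broad sites. Of the next 100, 53 were narrow and 44 broad, and from rank 201 to 400 the numbers were 121 and 65. In replicate 1, 12 of the highest 100 X peaks overlapped a narrow site and no broad site, against 80 that overlapped a broad site. From rank 1001 to 1235 of replicate 1 the numbers were 173 and 40. In replicate 2 the highest 100 gave 14 and 86. No narrow site had a replicate 1 peak at 3100, the highest value in that list.

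The weakest members had low replicate 1 scores or crowded replicate 2 peaks. The lowest series-level score, 2.24, belonged to the 171 bp site at 15588001 to 15588171, whose replicate 1 peak scored 50.1, the lowest value of the replicate 1 list. The next lowest, 2.25, belonged to the 438 bp site at 6742682 to 6743119. Its replicate 1 peak scored 742.9, and its replicate 2 peak of 15890 bp held 14 series-level peaks, 2 of them broad sites. The scores of the other 3 among the lowest 5 ran from 3.64 to 4.31, at 14583504 to 14583707, 15668016 to 15668195 and 7546334 to 7546880. Of the 739 sites, 4 had under 10% of their length covered by the replicate 1 peak.

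In replicate 1 the sites were matched nearly peak for peak. The 739 sites overlapped 730 replicate 1 peaks, which were 59.1% of that list's X peaks. Of these, 720 held 1 narrow site and 10 held 2, and 714 sites, or 96.6% (Wilson 95% interval 95.1% to 97.7%), were the only series-level peak in their replicate 1 peak. Midpoints of site and replicate 1 peak lay a median of 47.5 bp apart (quartiles 18.5 and 75.3 bp), and within 100 bp in 636 sites, or 86.1% (interval 83.4% to 88.4%). The replicate 1 peak had a median width of 439 bp, narrower than the site, and lay wholly inside it in 431 sites, or 58.3%. Of the 355 broad sites, 345, or 97.2%, were likewise the only series-level peak in their replicate 1 peak. The replicate 1 peak lay wholly inside the site in 294 broad sites, or 82.8%. For broad sites the median midpoint distance was 104.5 bp, and 172 of 355, or 48.5%, were within 100 bp. A wider peak leaves more room for an offset and for a replicate 1 peak inside it. The distances and the shares lying inside are thus not on equal terms. The intervals treat sites as independent and cover counting error only.

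In replicate 2 the same sites lay in much wider peaks. Their replicate 2 peaks had a median width of 2819 bp (quartiles 1753.5 and 4572.5 bp, range 1329 to 19751 bp), and all 739 sites lay wholly inside them. So did all 355 broad sites and 4845, or 99.1%, of the 4887 narrow X peaks in replicate 2 alone. Without the need for replicate 2 the rule gave 783 X sites, so that overlap removed few. A narrow site filled a median of 20.1% of its replicate 2 peak. The 739 sites fell into 653 replicate 2 peaks, 25.7% of that list's X peaks. Of these, 583 held 1 narrow site, 59 held 2, 8 held 3, 1 held 4 and 2 held 5. Measured from the lower coordinate, the median site midpoint stood at 0.49 of the replicate 2 peak's length (quartiles 0.36 and 0.64).

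The sites differed in the company they kept inside the replicate 2 peak. In 241 sites, or 32.6% (Wilson 95% interval 29.3% to 36.1%), the site was the only series-level peak there. A further 295 sites, or 39.9%, shared the replicate 2 peak with unreplicated series-level peaks only. Another 120, or 16.2%, shared it with another narrow site but no broad site, and 83, or 11.2%, shared it with a broad site. Of 355 broad sites 94, or 26.5%, were alone, and of the 4887 narrow X peaks in replicate 2 alone 568, or 11.6%, were. The share changed with the peaks counted and with the replicate 2 intervals used. When every replicate 2 peak was cut to 498 bp around its midpoint, the median replicate 1 width, 87.5% of the 423 sites then found were alone. An interval that short leaves little room for a second peak, and the set of sites changed with it. The part of peak width alone was therefore not tested. Without the need for replicate 1 the share was 14.4%. Among the 50% of series-level peaks with the highest scores, 49.9% of the narrow sites that remained were alone.

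The median site that was alone lay close to the centre of both replicate peaks. Midpoints of the alone sites were a median of 46.5 bp from that of the replicate 1 peak and 41.0 bp from that of the replicate 2 peak, although these replicate 2 peaks had a median width of 1594 bp. Single sites departed from this, such as the alone site at 1 to 339, 592.5 bp from its replicate 2 midpoint. Where a site shared its replicate 2 peak with a broad site, the median distance to the replicate 2 midpoint was 1706 bp in peaks of a median width of 8048 bp. It was 767 bp where another narrow site was present and 540 bp where the company was unreplicated. The distance to the replicate 1 midpoint stayed between 46.0 and 54.5 bp in all 4 classes.

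**Figure D2:**
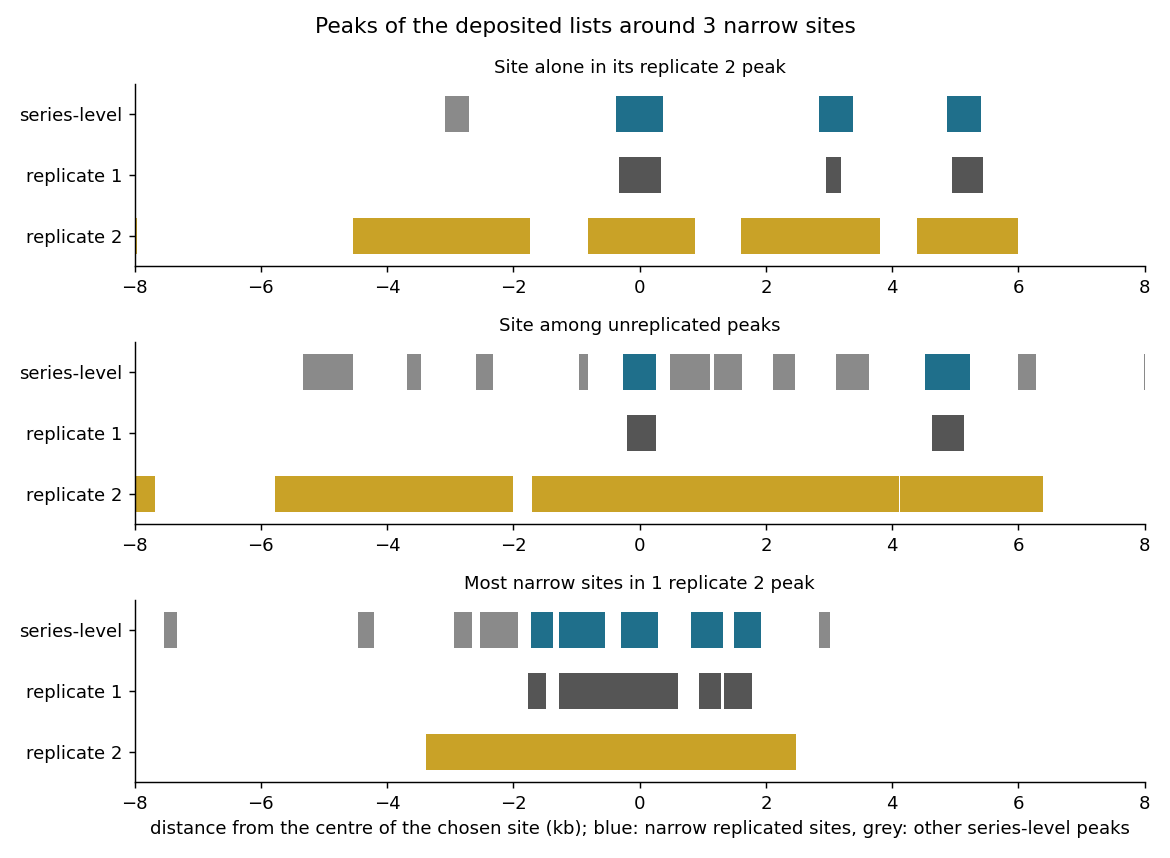
Bars show peaks of the series-level, replicate 1 and replicate 2 lists against distance in kb from the centre of 3 chosen sites: the highest-scoring site alone in its replicate 2 peak (949270 to 950004), the highest-scoring site among unreplicated peaks only, in a replicate 2 peak with at least 5 series-level peaks (6219828 to 6220345), and the best site of the first replicate 2 peak that holds 5 narrow sites (14387465 to 14388054). Blue bars are narrow sites and grey bars other series-level peaks; replicate 1 peaks sit on the sites, while replicate 2 peaks reach past them.

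Where a site had company, it usually had the best series-level score in the replicate 2 peak. This held for 344 of the 498 sites that shared a peak, or 69.1%, and for 194 of 261 broad sites, or 74.3%. Of the narrow X peaks in replicate 2 alone that shared one, it held for 998 of 4319, or 23.1%. The rule asked for a replicate 1 call, and replicate 1 and series-level scores of the 739 sites gave a rho of 0.73. A high place among unreplicated company is thus partly set by the rule. Of the 154 narrow sites that were not the best, 129 had a replicated site of higher score in the same replicate 2 peak. Among the 498 sites the best other peak had a median series-level score of 15.6. The site at 6219828 to 6220345 shows this arrangement. It was 518 bp wide and scored 91.6, while the best of the 5 other peaks in its replicate 2 peak scored 12.5. Its replicate 1 peak was 458 bp wide and scored 249.9, and its replicate 2 peak scored 1225.

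Some replicate 2 peaks held several narrow sites. A replicate 2 peak of 4554 bp held 4 of them between 4336235 and 4339357 and no other series-level peak. Its score of 3100 was shared by 30 peaks of that list, whose highest score was 3133. These sites were 546, 516, 568 and 559 bp wide, with series-level scores of 47.6, 71.5, 69.9 and 51.2. Each had a replicate 1 score of its own, 325.0, 256.8, 330.0 and 417.9 in the same order. The 4 sites were of similar width and separated by gaps as short as 137 bp.

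Both replicate 2 peaks that held 5 narrow sites scored below the median of that list's X peaks, 214.8. One spanned 14384379 to 14390238 with a score of 100.4, rank 1995 of its list, and its 5 sites had series-level scores from 6.97 to 15.3. Among these, the sites at 14386485 to 14387209 and 14387465 to 14388054 lay in a single replicate 1 peak of 1887 bp that scored 336.0. The other spanned 14573767 to 14584960 with a score of 202.3. Its 5 sites scored from 3.64 to 36.5, and those at 14583106 to 14583399 and 14583504 to 14583707 also shared a replicate 1 peak. Of the 739 sites 82, or 11.1%, had another series-level peak less than 100 bp away. The share was 10.4% for broad sites and 13.1% for narrow X peaks in replicate 2 alone. It was 4.96% for narrow X peaks in neither replicate and 30.0% for narrow replicated autosomal sites. In the series-level list no gap between X peaks was shorter than 43 bp.

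The scores of the 2 replicates ran together most closely where a site stood alone. Replicate 1 scores of the 739 sites had a median of 135.7 (quartiles 79.3 and 255.2, range 50.1 to 1788), and replicate 2 scores a median of 550.0 (quartiles 308.6 and 885.5, range 54.2 to 3133). Over all 739 sites the replicate scores gave a Spearman's rho of 0.46, and their log2 values a Pearson's r of 0.45. Over the 241 sites alone in their replicate 2 peak rho was 0.76 and r was 0.74. Over the 498 sites that shared it both were 0.38. Over the 355 broad sites rho was 0.60 and r was 0.58. All sites come from the same pair of libraries, and those in 1 replicate 2 peak are given its single score, so these values are descriptions and carry no p. The difference between them was not tested.

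**Figure D3:**
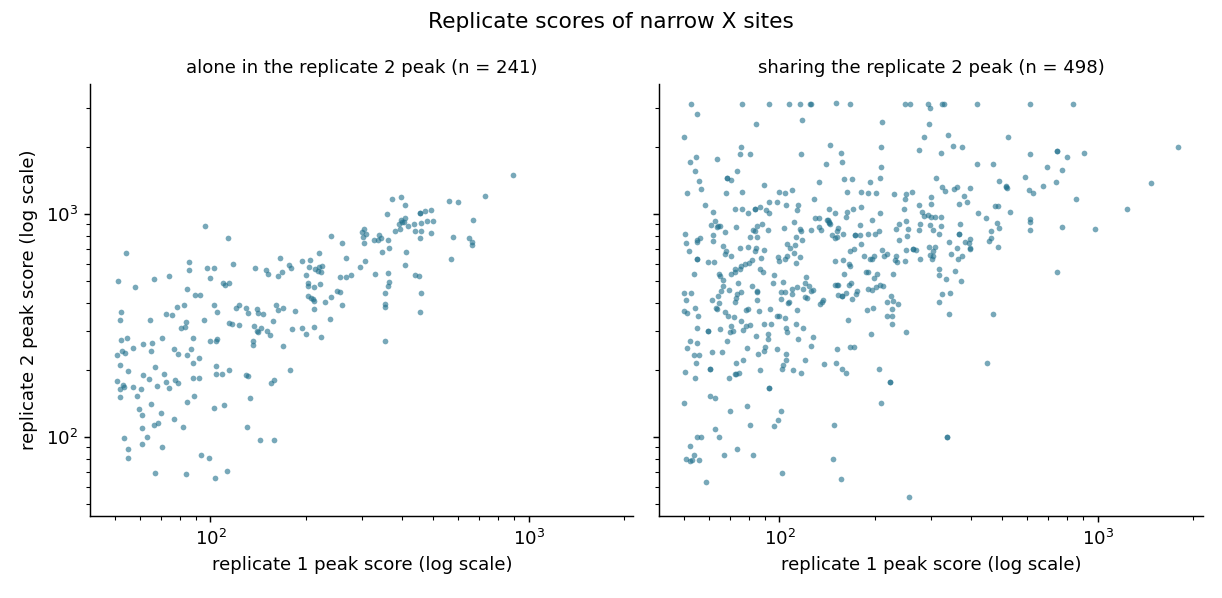
Each point is a narrow X site, with the score of its replicate 1 peak on the horizontal log axis and of its replicate 2 peak on the vertical log axis. The 241 sites alone in their replicate 2 peak (left) follow a band with rho = 0.76, while the 498 sites that share theirs (right, rho = 0.38) include weak replicate 1 peaks inside strong replicate 2 peaks.

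The 5 sites with the largest percentile difference between the lists all ranked higher in replicate 2, by 92.5 to 97.7 percentage points. The largest difference belonged to the site at 14505708 to 14506363, with a replicate 1 score of 50.1 and a replicate 2 score of 2204. The other 4, at 14530653 to 14531413, 9088584 to 9088870, 3456650 to 3457137 and 10557402 to 10557785, had replicate 1 scores from 52.2 to 55.2 and replicate 2 scores from 1718 to 3100. Their replicate 2 peaks, like that of the first, held between 3 and 14 series-level peaks. Large differences also occurred among sites alone in their replicate 2 peak, which were 16 of the 143 sites that ranked more than 50 points higher in replicate 2. The alone site at 229567 to 230352, with scores of 54.2 in replicate 1 and 669.7 in replicate 2, differed by 77.6 points. Likewise, 17 narrow sites lay in a replicate 2 peak at 3100 or above. They fell into 10 such peaks, none was alone, 13 shared the peak with a broad site, and their replicate 1 scores ran from 52.8 to 837.6.

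Of the 739 sites, 660 stood at a higher percentile in replicate 2 than in replicate 1. The median percentile of a site was 46.9 in replicate 1 and 77.3 in replicate 2. Replicate 2 ranked the site more than 25 points higher in 341 sites, and replicate 1 did so in 9. The lists held 1463 peaks in replicate 1 and 2671 in replicate 2, so the percentiles are not on one scale. The sites overlapped 59.1% of the replicate 1 X peaks and 25.7% of the replicate 2 X peaks. How far this difference in coverage sets the percentiles was not tested. For sites alone in their replicate 2 peak the median percentiles were 48.5 and 68.3, and for sites with a broad neighbour 41.7 and 93.4. The 355 broad sites moved the same way, with medians of 75.9 and 93.0.

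Series-level scores followed the company as well. Sites alone had a median series-level score of 53.5 (quartiles 33.1 and 77.7), those with unreplicated peaks only 46.1 (quartiles 29.4 and 69.4), those with another narrow site 35.8 (quartiles 19.8 and 54.8) and those with a broad site 29.2 (quartiles 17.5 and 52.7). Replicate 2 scores ran in the other direction, with medians of 383.7, 515.7, 812.0 and 1240 in the same order. Replicate 1 scores had no such order, with medians of 141.5, 134.1, 146.8 and 115.8. The quartile ranges of neighbouring classes overlapped in each list. The width of the replicate 2 peak changed with the company too, with medians of 1594, 3107, 4176 and 8048 bp, and its part in these scores was not tested.

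Beyond the replicate peaks, other X peaks stood near almost every site. The nearest series-level peak was a median of 687 bp away from a narrow site, edge to edge (quartiles 262.5 and 1229.5 bp, highest 8747 bp), and 494 bp from a broad site. It was 398 bp from narrow peaks in replicate 2 alone and 1011 bp from narrow peaks in neither replicate. Another peak's midpoint lay within 2 kb of 599 narrow sites, or 81.1%, and within 5 kb of 731, or 98.9%. Around narrow sites the number of other X peaks was 0.46 per kb at midpoint distances of 500 to 1000 bp and 0.58 per kb at 9500 to 10000 bp. Around narrow peaks in replicate 2 alone it was 0.66 and 0.53 per kb at these distances. A site's own width keeps other midpoints away at short distance. Broad sites had 0.25 per kb at 500 to 1000 bp and 0.53 per kb at 1000 to 1500 bp. The steps up to 1000 bp are thus not comparable between sets of different width. At 1000 to 1500 bp the narrow sites had 0.47 per kb and narrow peaks in replicate 2 alone 0.64.

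**Figure D4:**
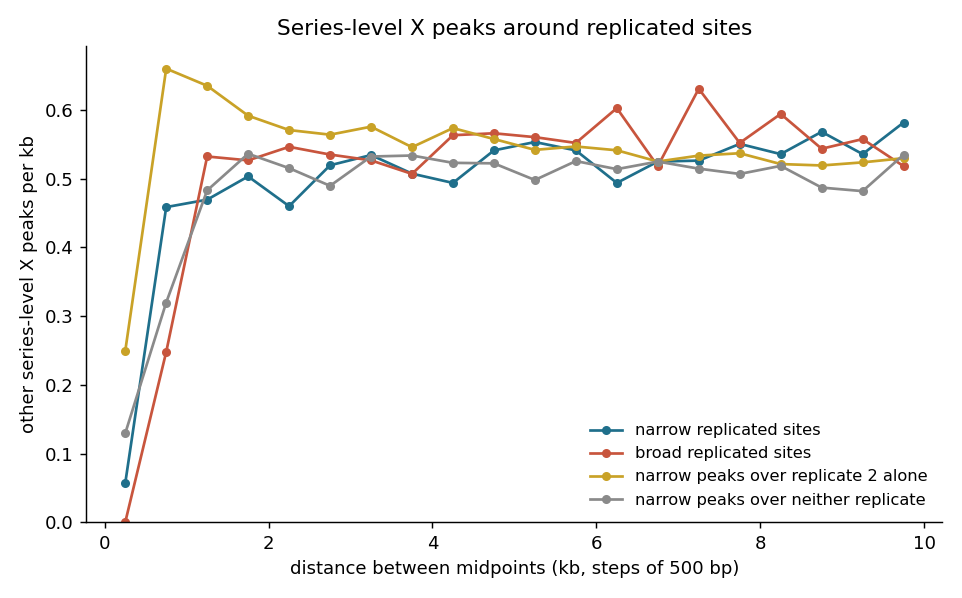
Lines give the number of other series-level X peaks per kb against the distance between midpoints in kb, in steps of 500 bp, for 4 sets of X peaks. Around narrow replicated sites (blue) the number stays between 0.46 and 0.58 per kb beyond the first step, while around narrow peaks in replicate 2 alone (yellow) it is highest, at 0.66 per kb, in the step from 500 to 1000 bp. The sets differ in peak width, so the steps up to 1000 bp are not comparable between them.

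A few narrow sites were isolated. The site farthest from any other series-level peak lay at 9347480 to 9347983, with 8747 bp to the next. It was 504 bp wide and scored 61.5 in the series-level list, 184.0 in replicate 1 and 368.4 in replicate 2. The next 4, at 229567 to 230352, 16785881 to 16786315, 9150204 to 9150636 and 14084070 to 14084624, had 5188 to 8271 bp to the nearest peak. All 5 were alone in their replicate 2 peak, and their series-level scores of 28.6 to 61.5 lay within the range of the other members. Isolation and score went together only weakly over the 739 sites, with a rho of 0.16 between the distance to the nearest peak and the series-level score.

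Narrow and broad sites were intermixed along the chromosome. Neighbouring narrow sites were a median of 14530 bp apart, edge to edge (quartiles 5195.5 and 32392 bp, range 44 to 229227 bp). Of the 738 gaps, 224 held at least 1 broad site, and 16 were longer than 100 kb. The nearest other narrow site was a median of 6904 bp from a narrow site and 6620 bp from a broad site. The nearest broad site was a median of 16478 bp from a narrow site, and there are fewer broad sites to be near. Read in order, the replicated sites formed 225 runs of narrow sites with a median length of 2 and a longest run of 20.

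The longest gap without a narrow site ran for 229227 bp after base 339, where 36 series-level X peaks, 1 of them a broad replicated site, lay between the first 2 members. The next longest ran for 199384 bp after 10990965 and held 102 series-level peaks, 3 of them broad sites. The gap of 147120 bp after 15877289 held 69 series-level peaks and no replicated site. Peaks of the series-level list were thus present in these gaps.

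The first member began at base 1 of the X. It was 339 bp wide, scored 7.88 in the series-level list, 158.7 in replicate 1 and 97.4 in replicate 2, and its next narrow neighbour was 229227 bp away. The last member lay at 17714229 to 17714672 with scores of 63.0, 226.5 and 351.0 in the 3 lists.

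Narrow sites occurred in every 1 Mb bin of the X. The 17 full bins held 42.2 ± 7.55 narrow sites (SD over bins), from 31 in bin 1 to 62 in bin 15, the bin from 14000001 to 15000000. Broad sites numbered 20.3 ± 6.51 per bin, from 10 in bin 1 and bin 4 to 30 in bin 3. Bin 15 held 480 series-level X peaks, fewer than the mean of 509.6, so that 12.9% of its X peaks were narrow sites, against 8.35% ± 1.59 over the 17 bins. Its 62 sites fell into 48 replicate 2 peaks, which include both that held 5 narrow sites. Bin 17 followed with 54 sites in 47 replicate 2 peaks. The median series-level score of narrow sites ran from 31.4 in bin 8 to 57.0 in bin 2. These SDs describe variation along 1 chromosome, not between libraries.

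**Figure D5:**
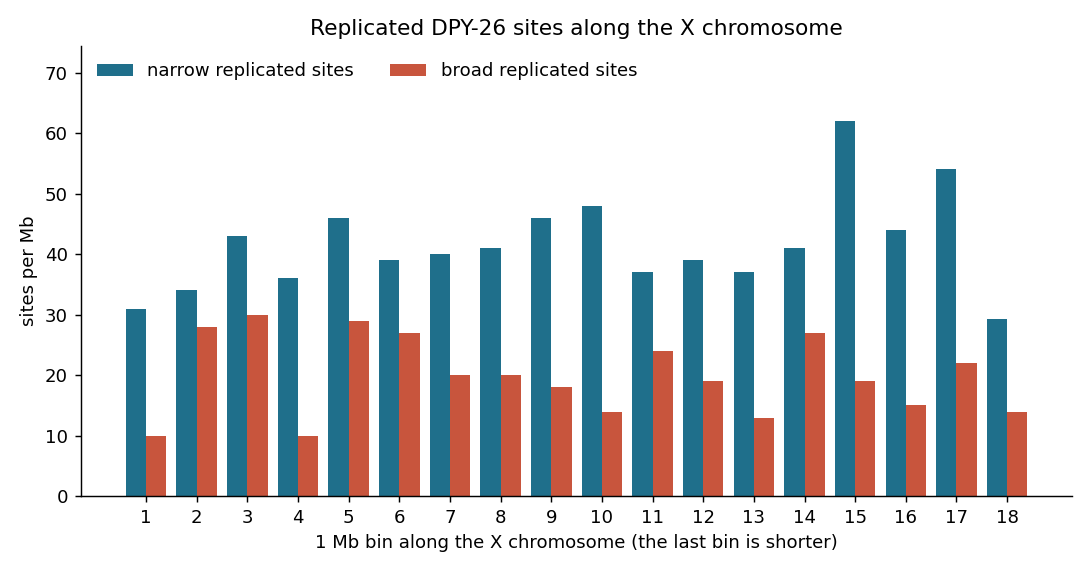
Bars give narrow (blue) and broad (red) replicated sites per Mb in each 1 Mb bin along the X, with the last, shorter bin scaled by its length. Narrow sites outnumber broad ones in every bin, and bin 15 has the most, with 62 narrow sites.

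The central 50% of the X held 369 of the 739 narrow sites, or 49.9% (Wilson 95% interval 46.3% to 53.5%), 51.3% of the broad sites and 50.9% of all series-level X peaks. Median series-level scores of narrow sites were 44.8 in the centre and 44.9 in the outer parts.

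On the autosomes the same rule found 70 sites, 8.51% of the 823 autosomal series-level peaks narrower than 800 bp. That share was close to the 8.81% on the X, but the need for replicate 2 weighed differently. Without it the rule gave 783 sites on the X, against 739, and 181 on the autosomes, against 70. The peaks in the 2 shares differed too. The X sites had a median width of 576 bp, against 371 bp for the autosomal sites, and a median series-level score of 44.8, against 9.75. The median replicate 1 score was 135.7 for the X sites and 96.5 for the autosomal sites, and the median replicate 2 score was 550.0 for X sites and 162.4 for autosomal sites. The replicate 1 peak had a median width of 439 bp around X sites and 873 bp around autosomal sites. In 714 X sites, or 96.6%, and in 31 autosomal sites, or 44.3%, the site was the only series-level peak in its replicate 1 peak. Among sites that shared their replicate 2 peak, 344 of 498 X sites, or 69.1%, had its highest series-level score. On the autosomes 14 of 46, or 30.4%, did. Another narrow site lay in the replicate 2 peak of 156 of the 739 X sites and 40 of the 70 autosomal sites. Sites that share a peak compete for the highest score, so these 2 percentages are not on equal terms. The 2 sets differ in number and in the density of peaks around them, and no test of these differences was made.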

How the data were processed

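DPY-26 ChIP-seq peak lists were analysed as the authors deposited them. Reads were aligned with BWA, per the submitters' processing notes, which list ce10 and give no version. Per the file headers and source column, MACS made the replicate calls and MACS v2 the series-level calls, on WormBase WS220. The deposited score of each peak is the authors' value. Its scale, the control, the filters and any pooling of replicates for the series-level list are not stated in the labels or headers. Replicate and series-level widths and scores come from different caller versions and are not on one scale.

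Overlaps, distances and shares were computed with pandas 2.3.3, numpy 2.4.6 and scipy 1.17.1 under Python 3.11.15, and drawn with matplotlib 3.10.9. Each site was given its highest-scoring overlapping peak of each replicate. Overlap and distance functions were tested on simulated peaks, and bedtools 2.31.1 gave the same 739 sites. The length of the X was taken as the largest peak end. Sites named in the text were drawn from sets fixed by rule, and not every site of each set is named. By score these were the 10 highest and 5 lowest series-level scores and the 5 highest scores of each replicate. By width they were the 3 narrowest and widest sites and the 3 replicated peaks just past the width limit. The others were the 5 most isolated sites, the 5 with the largest percentile difference and the 2 replicate 2 peaks with most sites. The example at 6219828, the chromosome-end sites and the gaps were chosen after their values were seen. The sites and the rules were chosen with earlier results of these data known. No peak was matched to a gene, because the gene table at hand is for WBcel235 and builds were not mixed. No test was run. Intervals cover counting error only, and with 2 ChIP libraries and no counts the error between cultures is unknown.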

Additional observations from a re-analysis of the deposited data

How the results depend on the processing

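Of 98 values recomputed under 14 settings, 60 stayed within 1.5 times a count, within 0.1 of a rank correlation, or within the 95% interval of a median or share, and 38 moved further. No paired analysis was possible because the input libraries have no peak list in use here and no result comes from a test. The number of narrow X sites, 739, became 414 with a limit of 600 bp, 330 with the upper 50% of both replicate lists and 423 with replicate 2 peaks resized to 498 bp. Leaving out the need for replicate 1 or for replicate 2 gave 5626 and 783 sites. The highest bin, 62 sites per Mb, became 32.0, 27.0 and 36.0 under those 3 settings, and 63.0 to 366 without a replicate. The 70 autosomal sites became 13 and 41 with the upper 50% and with resizing, and 178 to 181 without a replicate. The median series-level score, 44.8, became 36.9 (600 bp), 48.0 (1000 bp), 49.4 (50% of the site covered), 70.3 (upper 50%) and 51.0 (resized), and 7.98 to 42.3 without a replicate. The median replicate 1 score, 135.7, became 103.7, 151.2, 156.7, 282.7 and 150.7 under these 5 settings, and was 133.4 without replicate 2. The median replicate 2 score, 550.0, became 431.0 (600 bp), 622.5 (1000 bp), 765.3 (upper 50%) and 471.3 (resized), and was 286.0 without replicate 1. The midpoint distance of 47.5 bp became 40.5 bp (600 bp), 52.0 bp (1000 bp) and 38.8 bp (upper 50%), and was 48.5 bp without replicate 2. The share alone, 32.6%, became 49.9% with the upper 50% of the series-level list, 36.7% with peaks within 100 bp merged and 87.5% with resizing, and was 14.4% without replicate 1. The share in the central 50% became 46.1% with resizing. The Spearman rank correlation of the replicate scores, 0.46, became 0.63 with resizing and 0.76 over sites alone in both replicate peaks. Fewer or other peaks enter by construction, and other causes were not tested. No depth is given, so none could be weighed.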
